A study of Mus musculus with 2 samples.

Results

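The genes of antigen presentation by major histocompatibility complex (MHC) class II were measured across the cell types of the mouse thoracic aorta. The 8 genes were taken by symbol from the 32287 features of the deposited count matrices, and all 8 were present: *H2-Aa*, *H2-Ab1*, *H2-Eb1*, *Cd74*, *H2-DMa*, *H2-DMb1*, *Ciita* and *Ctss*. Single-cell transcriptomes came from 2 aortas of GFPiSMC mice in 1 group (WT, n = 2 aortas from separate animals). These animals are on the C57BL/6J background and carry Myh11-CreERT2, a Cre recombinase that tamoxifen activates in smooth muscle cells (SMCs), and the membrane reporter mT/mG, which Cre switches from tdTomato to eGFP. By the sample labels, both received tamoxifen at 1 mg per day for 5 days from 3 weeks of age and were studied at 12 weeks. The study's methods describe a higher daily dose from a later age for adult mice, so the schedule given here rests on the labels. The Cre transgene is on the Y chromosome, so the animals are male. Viable cells were sorted without selection for GFP, and the comparisons are between cell types within these aortas, not between treatments.

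MHC class II molecules present peptides from endocytosed proteins to CD4+ T cells and are best known from dendritic cells, macrophages and B cells. The α and β chains (*H2-Aa*, *H2-Ab1*) assemble with the invariant chain, encoded by *Cd74*, which blocks the peptide groove and guides the complex to endosomes. Cathepsin S (*Ctss*) then trims the invariant chain, and the DM heterodimer (*H2-DMa*, *H2-DMb1*) exchanges the remaining fragment for peptide. *Ciita* encodes the class II transactivator, which does not bind DNA itself but joins factors bound to the promoters of these genes. Mice of the b haplotype, such as C57BL/6J, lack a functional Eα chain and so display no I-E protein, although the *H2-Eb1* transcript is made.

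Of the members, 5 lie on chromosome 17 in the annotation used (GENCODE M21, GRCm38), within a span of 197134 bases between 34119541 and 34316674. They are *H2-DMa* (34119541 to 34139101), *H2-DMb1* (34153072 to 34160230), *H2-Ab1* (34257689 to 34269419), *H2-Aa* (34282744 to 34287823, the minus strand) and *H2-Eb1* (34305867 to 34316674). *Ciita* lies on chromosome 16 (10480059 to 10528418) and *Ctss* on chromosome 3 (95526786 to 95556403). *H2-DMa* overlaps *Brd2* and other genes on the opposite strand, *H2-Eb1* the antisense gene *Gm20513* and *Ciita* the protein-coding gene *Dexi*, also on the opposite strand, so that their counts depend on strand use, which was not stated. *H2-DMa* also overlaps a gene on its own strand, which strand use would not separate, and *Cd74* and *Ctss* each overlap a small RNA or pseudogene on theirs. *H2-DMb1* lies beside its paralog *H2-DMb2*. Of 410 windows of 91 bases in the last 500 bases of the longest *H2-DMb1* transcript, 51 (12.4%) occur unchanged in *H2-DMb2*, and none of the 410 windows of *H2-DMb2* occurs in *H2-DMb1*, so some reads of *H2-DMb1* could not be assigned to 1 of the genes.

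Class II promoters are known for an X box, bound by RFX factors, followed by a Y box, bound by NF-Y. RefSeq windows (GRCm38.p6, 250 bases before to 50 after a start site) were held for 5 of the 8 members, and were searched on both strands for an X core (GNAACT) followed after 20 to 40 bases by a Y box (GATTGG). These motifs do not overlap and were chosen after the sequences had been seen. The ordered pair was present in the windows of *H2-Aa*, *H2-Eb1* and *H2-DMb1*, and absent in this form from both windows of *H2-DMa* and the window of *Ctss*. Over all 32851 windows, 42.8% held the X core, 16.1% the Y box and 0.347% (114 windows) the ordered pair. The stretches of *H2-Aa* and *H2-Eb1* are shown because this pair is the sequence feature that these genes share, 5′ to 3′ on the strand of the gene. Both lie before the start of every GENCODE transcript of their gene. Capitals mark the X core and then the Y box.
*H2-Aa* (chr17:34287842-34287929, minus strand): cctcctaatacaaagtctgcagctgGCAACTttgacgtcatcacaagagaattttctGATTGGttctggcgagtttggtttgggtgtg
*H2-Eb1* (chr17:34305751-34305837, plus strand): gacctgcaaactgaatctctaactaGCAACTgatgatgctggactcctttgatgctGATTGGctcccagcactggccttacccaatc
The motifs are separated by 26 bases in *H2-Aa* and *H2-DMb1* and by 25 bases in *H2-Eb1*, and the Y box ends 43, 56 and 54 bases before the RefSeq start site in *H2-Aa*, *H2-DMb1* and *H2-Eb1*. In *H2-DMb1* the pair falls inside the first exon of the GENCODE gene, which starts farther upstream, and its sequence is not shown. A match is a description of these letters and was not tested for function.

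The matrices held 8947 and 6263 cells with 47009780 and 30919996 UMIs (unique molecular identifiers, a count of captured molecules). After filtering and removal of doublets, 6539 and 4614 cells remained, with a median of 5671 and 5396.5 UMIs, and 18 barcodes occurred in both libraries. Clusters were named from marker lists that held no class II gene, and the class II genes had no part in the clustering. In all, 15 cell types had at least 10 cells in each aorta, and 839 and 494 cells stayed unnamed, in clusters of low depth, with markers of another lineage or with fewer than 3 markers of a class detected. An unnamed cluster of 13 cells, all from aorta 1, was led by *Xist* although the animals are male, and its source was not tested. The sums used in the comparisons ranged from 28 and 23 dendritic cells to 1689 and 1291 SMCs, so that sums of rare types rest on fewer molecules. "Resident macrophage" stands for clusters with at least 3 of *Folr2*, *Cd163*, *F13a1*, *Cbr2*, *Lyve1* and *Mrc1* detected, and "other macrophage" for the remaining macrophage clusters. The names are rebuilt from markers and can differ from those of the study. In the dendritic cells 7 of 10 dendritic markers were found in at least 25% of cells, among them *Flt3* (90.9 and 101 CPM, counts per 1e6 UMIs), which was at 0 CPM in both macrophage groups. Some markers of dendritic subsets were uneven between the aortas, in opposite directions. *Cd209a* was at 885 and 321 CPM, *Clec10a* at 347 and 86.2 and *Ccl17* at 269 and 9.58, whereas *Clec9a* was at 43.8 and 105.4 and *Tlr3* at 50.5 and 139. On the list of *Cd209a*, *Kmo* went the other way (57.2 and 76.7), and *Itgax* (70.7 and 67.1) and *Tnip3* (87.5 and 81.5) differed little. *Xcr1*, on the list of *Clec9a*, was at 57.2 and 71.9. The dendritic sums of the aortas may differ in their make-up, which was not tested.

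Levels are given as CPM of the summed UMIs of a cell type in each aorta. Because the method reads 3′ ends, a gene is compared between cell types and not with another gene by its level. The class II α chain gene *H2-Aa* reached 9654 and 9669 CPM in dendritic cells (9661 ± 10.8, SD, n = 2). It followed at 5984 and 6474 CPM in other macrophages, 3176 and 3260 in B cells, 1767 and 1239 in resident macrophages, 706 and 1161 in monocytes and 139 and 208 in endothelial cells. None of these 6 ranges overlapped with that of its neighbor in the order. Among the remaining types, mesothelial cells were at 12.1 and 15 CPM, SMCs at 5.56 and 4.18, fibroblasts at 5.6 and 5.0, T cells at 8.11 and 5.30, and no *H2-Aa* UMI was found in lymphatic endothelial cells. Erythroid cells and thymocytes were uneven, at 25.7 and 104 CPM and at 5.37 and 80 CPM. In aorta 2 all *H2-Aa* UMIs of these types lay in 1 of 14 erythroid cells and 1 of 83 thymocytes. The 7 B cell markers summed to 1236 and 1576 CPM in thymocytes, and their part in these values was not tested. The β chain genes kept this order of the 6 leading types, with *H2-Ab1* at 9886 and 9721 CPM in dendritic cells, 6465 and 6972 in other macrophages, 2282 and 2283 in B cells and 1612 and 1060 in resident macrophages. *H2-Eb1* was at 8725 and 8068 CPM in dendritic cells, 6053 and 6405 in other macrophages, 2933 and 2640 in B cells and 1439 and 906 in resident macrophages.

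**Figure D1:**
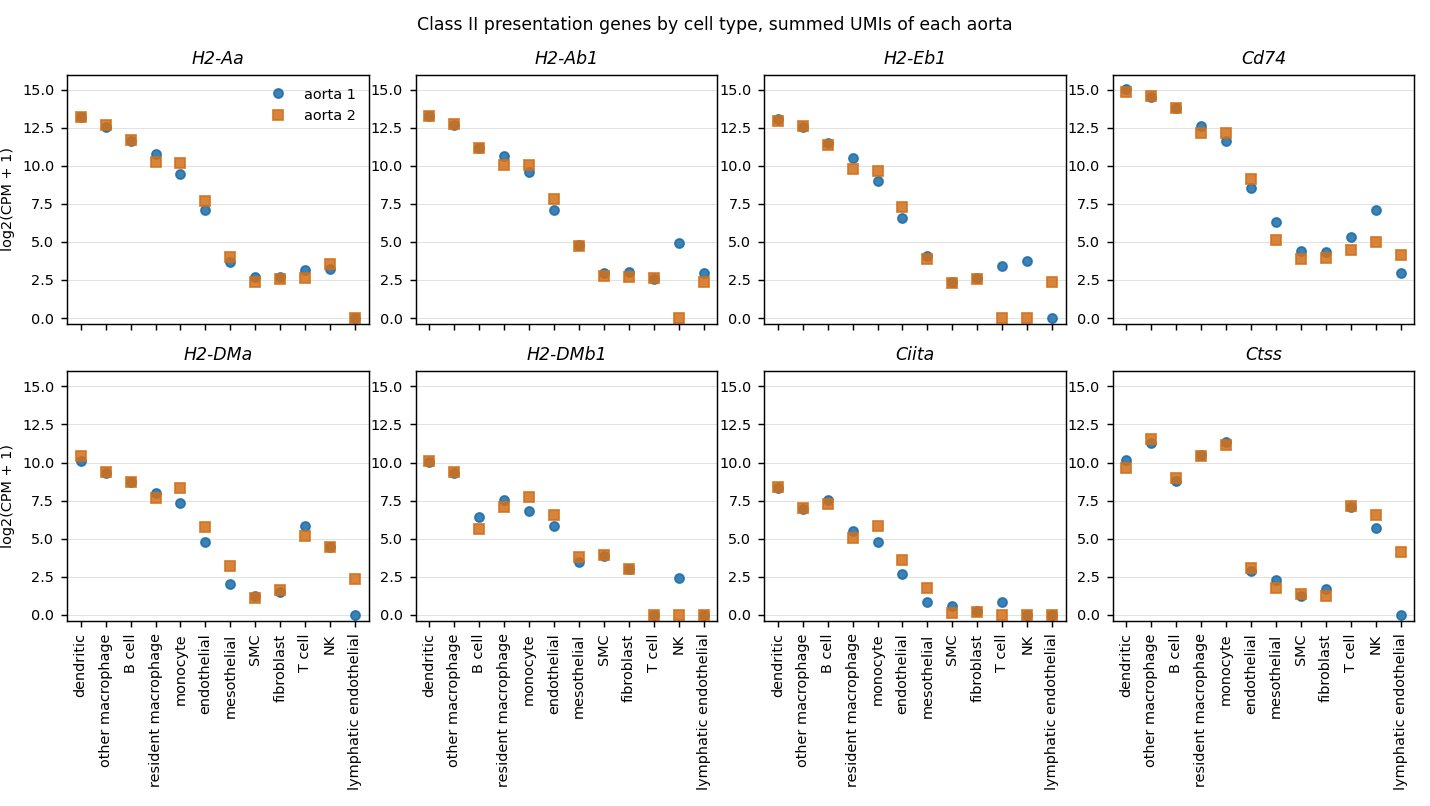
Level of each of the 8 genes, as log2(CPM + 1) of summed UMIs, in 12 cell types (x axis) with 1 point per aorta (circle, aorta 1; square, aorta 2). *H2-Aa* falls from 9654 and 9669 CPM in dendritic cells to 0 in lymphatic endothelial cells, whereas *Ctss* is highest in other macrophages and monocytes.

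The invariant chain gene *Cd74* (chromosome 18, 60803848 to 60812652) followed the same order. It was at 33250 and 29220 CPM in dendritic cells, 23100 and 24980 in other macrophages, 14070 and 14420 in B cells, 6427 and 4647 in resident macrophages, 3147 and 4594 in monocytes and 376 and 563 in endothelial cells. Resident macrophages and monocytes did not overlap, with the lowest resident value at 4647 and the highest monocyte value at 4594 CPM. The DM genes were also highest in dendritic cells (*H2-DMa* at 1094 and 1351 CPM, *H2-DMb1* at 1060 and 1116 CPM). Their order then differed between the chains: B cells came after other macrophages for *H2-DMa* (423 and 426 CPM) but after monocytes and resident macrophages for *H2-DMb1* (82.9 and 49.1 CPM), where their range overlapped with that of endothelial cells (54.9 and 93.9 CPM). T cells carried *H2-DMa* at 56.8 and 35.3 CPM with no UMI of *H2-DMb1*. The transactivator gene *Ciita* was at 327 and 340 CPM in dendritic cells, 189 and 152 in B cells, 125 in other macrophages of both aortas, 44.6 and 31.6 in resident macrophages, 26.0 and 55.3 in monocytes and 5.28 and 11.3 in endothelial cells. The protease gene *Ctss* had an order of its own. Other macrophages (2506 and 2985 CPM) and monocytes (2597 and 2297 CPM) overlapped at the top, followed by resident macrophages (1422 and 1385), dendritic cells (1155 and 791), B cells (443 and 498) and T cells (134 and 138), and endothelial cells were at 6.33 and 7.26 CPM.

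Within the cell types, class II transcripts were spread to different degrees. To compare cells of different depth, each cell was thinned to 1000 UMIs, which left out no cell, and the UMIs of *H2-Aa*, *H2-Ab1*, *H2-Eb1* and *Cd74* were added up. The median cell held 66.5 and 59.0 such UMIs among dendritic cells, 67.0 and 61.0 among other macrophages, 25 and 27 among B cells and 5.0 and 2.0 among resident macrophages. The quartiles of B cells were 18.8 and 31.3 in aorta 1 and 20.5 and 32.0 in aorta 2. Most monocytes held none (64.7% and 56.7% of cells), while the highest monocyte held 55 and 86, and a UMI of *H2-Aa* was found in 7 of 51 and 4 of 30 monocytes. Resident macrophages ran from 0 in 27.9% and 32.4% of cells to 10 or more in 37.3% and 26.7% of cells. Among endothelial cells, 67.3% and 59.2% held none, and the upper quartile was 1.0.

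**Figure D2:**
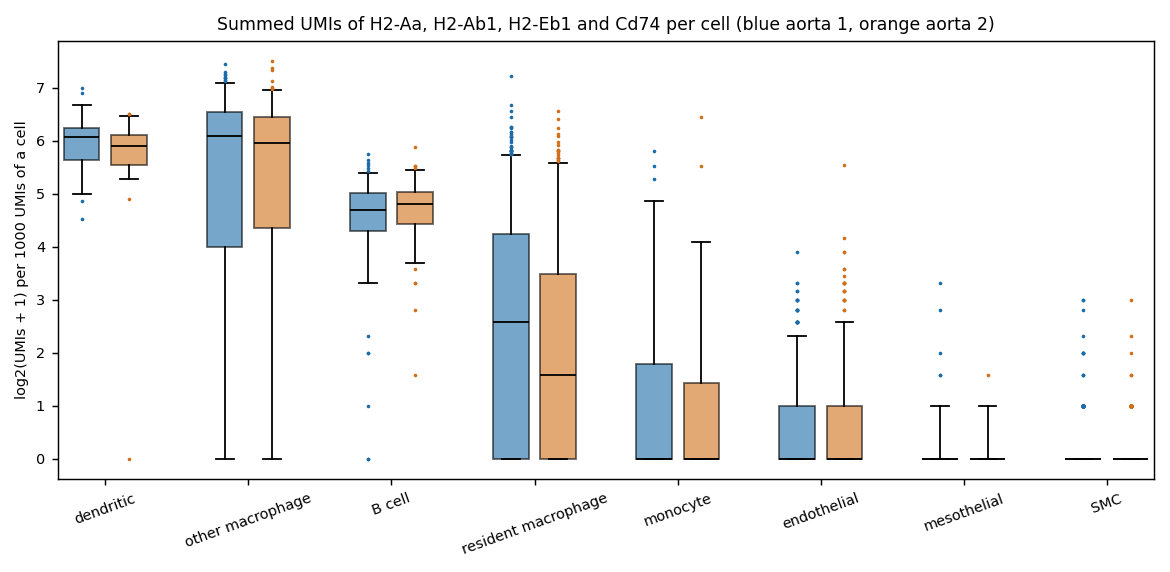
Summed UMIs of *H2-Aa*, *H2-Ab1*, *H2-Eb1* and *Cd74* per 1000 UMIs of a cell, as log2(UMIs + 1), by cell type (blue, aorta 1; orange, aorta 2). Boxes span the quartiles, lines within them are medians, whiskers reach the 5th and 95th percentiles and dots are cells beyond them; the medians are 66.5 and 59.0 in dendritic cells and 5.0 and 2.0 in resident macrophages.

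The share of cells with at least 1 UMI of *Cd74* after thinning was 100% and 95.7% in dendritic cells, 98.4% and 100% in B cells, 80.6% and 80.3% in other macrophages and 70.2% and 63.6% in resident macrophages. In endothelial cells it was 20.5% (exact 95% interval 17.5 to 23.6) and 24.9% (21.6 to 28.4), against 1.60% (1.06 to 2.32) and 1.39% (0.828 to 2.20) in SMCs. SMCs are shown as a reference for free RNA. Neutrophils, at median depths of 1678.5 and 1726 UMIs, held 9.52% and 14.3%, and T cells 2.68% and 0.794%. Free RNA weighs more in shallow cells and thinning does not correct this, so SMCs do not give the background of endothelial cells. Without thinning these shares were 37.9% and 39.0% in endothelial cells and 10.6% and 8.37% in SMCs, with median depths of 3687 and 3039 UMIs and 8967 and 8420 UMIs. With a minimum of 2 UMIs after thinning, they were 8.10% and 11.7% in endothelial cells and 0.474% and 0.232% in SMCs. Intervals cover counting error only.

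How far dendritic cells stand above the macrophages of these samples was asked first. *H2-Aa* averaged 9661 ± 10.8 CPM in dendritic cells and 1503 ± 373 CPM in resident macrophages (SD, n = 2), and edgeR gave 2.83 on the log2 scale with an SE of 0.27 (adjusted p = 4.96e-11). In this comparison 7 of 8 members were higher in dendritic cells, where 7.9% of all 11318 tested genes were higher and 10.7% lower. The members' median log2 fold change was 2.86 against -0.15 over all genes tested. *Ciita* had the largest (3.23, SE 0.22), and *Ctss* was the exception at -0.36 (SE 0.17, adjusted p = 0.124). Of the other class II presentation genes, 6 of 25 tested were higher and 4 lower. The higher ones were *H2-Eb2*, the second DM β chain gene *H2-DMb2*, *H2-Oa* and *H2-Ob*, whose products form the DO heterodimer that restrains DM, *Ifi30* and *Irf8*. *H2-Oa* was at 148 and 292 CPM in dendritic cells and at 0.943 and 1.02 CPM in resident macrophages (log2 fold change 7.83, SE 0.48). The lower ones were the lysosomal proteases *Ctsd* (log2 fold change -4.50, SE 0.26), *Ctsl*, *Ctsb* and *Lgmn*. Of 9 class I genes, 4 were higher (*Tap1*, *Tap2*, *Psmb8* and *Psmb9*, genes of peptide transport and the immunoproteasome). The other scaling of libraries (relative log expression, RLE) lowered the median gene by 0.21 and turned the share of higher genes among all called from 42.5% to 30.5%, with the same 7 members called.

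Dendritic cells and other macrophages differed in fewer members. *Ciita* was higher in dendritic cells (333 ± 9.68 against 125 ± 0.262 CPM, log2 fold change 1.40, SE 0.20, adjusted p = 2.69e-06) and *Ctss* was lower (972.5 ± 257 against 2745 ± 339 CPM, log2 fold change -1.50, SE 0.17, adjusted p = 1.04e-08). These are 1 member higher and 1 lower, against 3.38% and 5.65% of all genes. The chain genes and *Cd74* lay between 0.36 and 0.62 on the log2 scale, with adjusted p between 0.114 and 0.729, and *H2-DMa* (0.90, SE 0.18) and *H2-DMb1* (0.71, SE 0.17) passed the adjusted p but not the fold threshold of 2 (1 on the log2 scale). The median over members was 0.58, and -0.09 over all genes. Among other class II presentation genes 6 were higher and 4 lower, the same genes as against resident macrophages, with *Ctsd* at -4.87 (SE 0.25). In class I, the same 4 genes were higher. With cells of at least 5000 UMIs only, *Ciita* fell under the fold threshold (0.90) and *H2-DMa* passed it (1.31), and in that setting a cluster with *Otof* and *Aldh1a2* among its leading genes was counted with the dendritic cells.

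Other macrophages exceeded resident macrophages in all 8 members, where 6.74% of all genes were higher and 6.67% lower. The log2 fold changes ran from 1.13 for *Ctss* (SE 0.16) to 2.57 for *H2-Eb1* (SE 0.29), with a median of 2.19 against 0 over all genes. *H2-Aa* was at 6229 ± 347 CPM in other and 1503 ± 373 CPM in resident macrophages (log2 fold change 2.21, SE 0.26, adjusted p = 8.44e-09). Only 3 of 25 other class II presentation genes were called, all higher: *H2-DMb2* (55.8 ± 9.67 against 1.18 ± 1.22 CPM), *H2-Oa* and *H2-Ob*. Single clusters held most UMIs of the first 2 of these, with 63 of 89 and 57 of 66 *H2-DMb2* UMIs in the cluster led by *Cd226* and 32 of 33 and 27 of 30 *H2-Oa* UMIs in that led by *Mmp12*. The 9 class I genes had a median of 0.18. With RLE scaling *Ctss* fell under the fold threshold (0.93), and DESeq2 lost *Ctss* (0.94) and *Cd74* (adjusted p = 0.0794). RLE scaling lowered the median gene by 0.19 and turned the share of higher genes among all called from 50.3% to 36.9%.

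**Figure D3:**
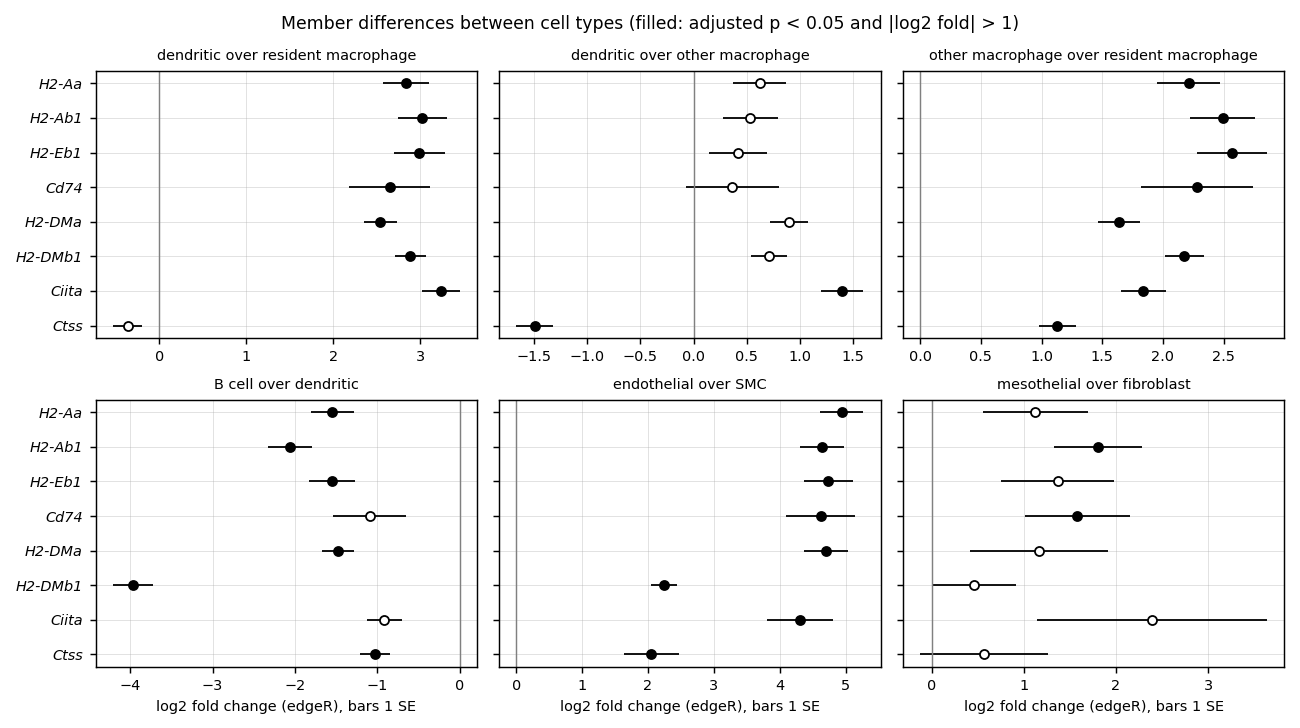
Log2 fold change of each member (y axis) in 6 comparisons, the type named first over the type named last, with bars of 1 SE from edgeR; filled points passed an adjusted p of 0.05 and a fold of 2. *Ctss* lies at -0.36 and -1.50 where dendritic cells are compared with macrophages, and *H2-DMb1* at -3.97 in B cells over dendritic cells. Lymphatic endothelial cells are not drawn because several of their counts are 0.

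The group of other macrophages was made of 3 clusters with widely differing levels. They are described without a test, since they were singled out after their values were seen, and are named by their leading genes. The cluster led by *Mmp12*, *H2-M2* and *Cd207* (116 and 74 cells) held the highest levels of any cluster for *H2-Aa* (12640 and 11850 CPM), *Cd74* (49470 and 47060 CPM) and *Ctss* (4680 and 4734 CPM). Its *Cd74* lay above that of dendritic cells (33250 and 29220 CPM), but its *Ciita* lay below (227 and 220 against 327 and 340 CPM). *Mmp12* encodes a macrophage elastase and *Cd207* the lectin langerin. This cluster was at 0 CPM for the dendritic genes *Flt3* and *Cd209a* and at 6511 and 6602 CPM for *C1qa*, which encodes a complement subunit made by macrophages. *Cadm1*, a marker on the list for one dendritic subset, was among its leading genes. Over all other macrophages, *Cadm1* (139 and 163 against 10.1 and 81.5 CPM), *Itgax* (127 and 138 against 70.7 and 67.1 CPM) and *Zmynd15* (166 and 236 against 60.6 and 4.79 CPM) of the dendritic subset lists lay above their levels in dendritic cells. Of the same lists, *Xcr1*, *Clec9a*, *Wdfy4*, *Tlr3*, *Cd209a*, *Kmo*, *Clec10a*, *Ccl17*, *Tnip3* and *Il4i1* lay below in both aortas. The dendritic marker *Napsa* was found in 37.2% of other macrophages (82.6 and 96.9 against 804.5 and 881.6 CPM in dendritic cells). The cluster led by *Cd226*, *Aldh1a2* and *Hr* (42 and 24 cells) had *H2-Aa* at 5061 and 6051 CPM and *Ctss* at 1263 and 1876 CPM.

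The cluster led by *Alox15*, *Slpi* and *Prg4* (43 and 29 cells) had the lowest *H2-Aa* and *Cd74* of the 13 clusters of macrophages, monocytes, dendritic cells and B cells, with *H2-Aa* at 71.4 and 88.3 CPM and *Cd74* at 472 and 281 CPM. Its *Ctss* was at 1197 and 1553 CPM, beside 1422 and 1385 CPM in all resident macrophages, and its *C1qa* was at 4097 and 4688 CPM. Between the first and the last of these clusters the fold was 177 and 134 for *H2-Aa*, 104.8 and 167 for *Cd74*, 10.1 and 6.2 for *H2-DMa* and 3.91 and 3.05 for *Ctss*. In the cells of the *Alox15* cluster, 79.1% and 82.8% held none of the 4 transcripts after thinning, against 0.862% and 0% in the *Mmp12* cluster.

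Resident macrophage clusters spanned a smaller range. *H2-Aa* was at 2490 and 1729 CPM in the cluster led by *Ccl12*, *Pla2g2d* and *Adam33*, 1685 and 1221 in that led by *Emp1*, *Fxyd2* and *Lyve1*, 1447 and 937 in that led by *Cd209f*, *Cd209d* and *Cd209g* and 454 and 447 in that led by *Marco*, *Syngr1* and *Fpr1*. Aorta 1 was higher in each of these 4. A further cluster, led by *Grap*, *Igfbp4* and *Fcrls*, had a low depth (median 1519 UMIs) and held *H2-Aa* at 3146 and 4781 CPM, and leaving it out changed none of the members called in the comparisons with dendritic cells and other macrophages. Among monocytes, the cluster led by *Ly6c2*, *Chil3* and *Plac8*, genes of classical monocytes, held *H2-Aa* at 988 and 1807 CPM, and that led by *Cd300e*, *Ace* and *Ly6i*, with genes of nonclassical monocytes, at 328 and 128 CPM.

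**Figure D4:**
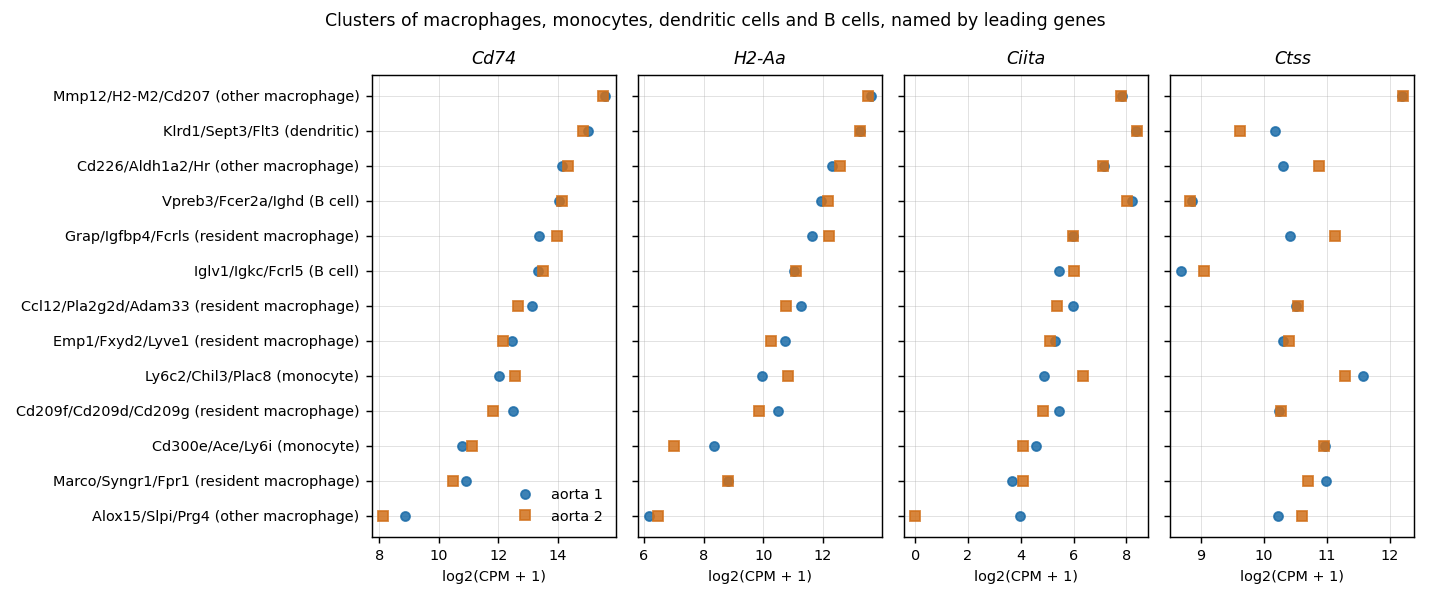
*Cd74*, *H2-Aa*, *Ciita* and *Ctss* as log2(CPM + 1) (x axes) in 13 clusters of macrophages, monocytes, dendritic cells and B cells (y axis, ordered by *Cd74*), 1 point per aorta (circle, aorta 1; square, aorta 2). *Cd74* runs from 472 and 281 CPM in the *Alox15* cluster to 49470 and 47060 CPM in the *Mmp12* cluster, while *Ctss* is lowest in the B cell clusters.

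B cells were compared with dendritic cells as the other antigen-presenting type. *H2-DMb1* differed most, at 82.9 and 49.1 CPM in B cells and 1060 and 1116 CPM in dendritic cells (log2 fold change -3.97, SE 0.24, adjusted p = 1.77e-15). In all, 6 of 8 members were lower in B cells, where 8.47% of all genes were lower and 5.29% higher. *H2-Ab1* was at -2.06 (SE 0.27), *H2-Aa* and *H2-Eb1* both at -1.55 (SE 0.26 and 0.28), *H2-DMa* at -1.48 (SE 0.20) and *Ctss* at -1.03 (SE 0.18). *Cd74* (-1.09, SE 0.44, adjusted p = 0.0952) and *Ciita* (-0.92, SE 0.21) were not called. DESeq2 called only *H2-DMa* and *H2-DMb1*, with adjusted p of 0.0535 for *H2-Ab1*, 0.185 for *H2-Aa* and 0.351 for *H2-Eb1*, *Cd74* was called without a gene filter, *Ciita* was called with cells of 5000 to 25000 UMIs (-1.23, adjusted p = 0.00216), and *Ctss* fell under the fold threshold in 5 alternatives (-0.92 to -0.85). Among these was RLE scaling, which raised the median gene by 0.17 and turned the share of higher genes among all called from 38.5% to 49.2%.

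Among the other class II presentation genes, 3 were higher in B cells and 5 lower. The higher ones were *H2-DMb2* (472 ± 26.7 against 165 ± 10.1 CPM, log2 fold change 1.56, SE 0.25), *H2-Ob* (1.39, SE 0.26) and *H2-Eb2* (1.91, SE 0.63). The lower ones were *Ifngr1*, a subunit of the interferon-γ receptor (-2.46, SE 0.28), *Ctsb* (-1.52, SE 0.25), *Ifi30*, *Cd86* and *Irf8*. Of the class I genes, *Psmb9* alone was called (-1.24, SE 0.19, lower in B cells). The DM β chain UMIs of B cells were mostly those of *H2-DMb2*: *H2-DMb1* made up 15.5% of *H2-DMb1* and *H2-DMb2* UMIs (exact 95% interval 11.6 to 20) in aorta 1 and 9.09% (5.79 to 13.4) in aorta 2. It made up 87.0% and 86.6% in dendritic cells, 93.0% and 91.5% in other macrophages and 99.8% and 98.5% in resident macrophages. In endothelial cells all 156 and 207 such UMIs were *H2-DMb1*. Reads that match both paralogs could not be assigned, and their part in these shares was not tested.

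**Figure D5:**
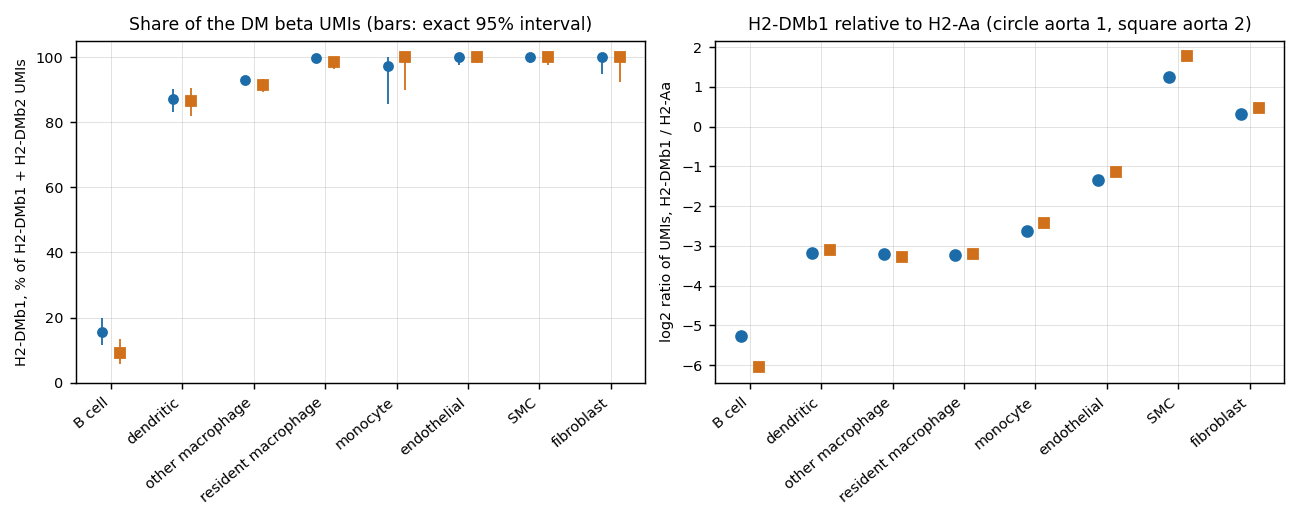
Left, share of *H2-DMb1* among *H2-DMb1* and *H2-DMb2* UMIs (percent, bars exact 95% intervals); right, ratio of *H2-DMb1* to *H2-Aa* UMIs on a log2 scale, by cell type (circle, aorta 1; square, aorta 2). The share is 15.5% and 9.09% in B cells and between 86.6% and 100% in the other types drawn, and the ratio is highest in SMCs.

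B cells fell into 2 clusters, described without a test. The cluster led by *Vpreb3*, *Fcer2a* and *Ighd* (99 and 65 cells) held *Ciita* at 294 and 263 CPM, and that led by *Iglv1*, *Igkc* and *Fcrl5* (25 and 30 cells) at 42.2 and 64.0 CPM, folds of 6.96 and 4.10. The folds of the targets were smaller, at 1.91 and 2.11 for *H2-Aa*, 2.20 and 1.83 for *H2-Ab1* and 1.62 and 1.56 for *Cd74*. *H2-DMb1* was higher in the first cluster in aorta 1 and lower in aorta 2 (1.53 and 0.473). *Ctss* was at 1.12 and 0.854.

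Endothelial cells were compared with SMCs to ask whether vessel wall cells other than leukocytes carry class II transcripts. *H2-Aa* was at 139 and 208 CPM in endothelial cells and at 5.56 and 4.18 CPM in SMCs (log2 fold change 4.94, SE 0.33, adjusted p = 3.31e-16). All 8 members were higher in endothelial cells, where 15.9% of all genes were higher and 13% lower. The median over members was 4.63, and 0 over all genes. The chain genes, *Cd74*, *H2-DMa* and *Ciita* lay between 4.31 and 4.94, and *H2-DMb1* (2.24, SE 0.20) and *Ctss* (2.05, SE 0.41) were lower than these. *Ciita* rested on 15 and 25 UMIs in endothelial cells and 7 and 1 in SMCs. All 9 class I genes were higher too (median 3.69), led by *Psmb8* (265 and 280 against 5.37 and 6.18 CPM) and *Psmb9*. Of the other class II presentation genes, 6 of 25 were higher, among them *Cd40*, a costimulatory receptor (23.9 and 25.9 against 0.0647 and 0.182 CPM), *March1*, *Irf8*, *Irf1* and *Ifngr1*, of which the last encodes an interferon-γ receptor subunit. *Ifngr2* was lower. RLE scaling raised the median gene by 0.18 and called the same 8 members.

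Values that bear on RNA from leukocytes are as follows. The 6 macrophage markers summed to 93.2 and 88.9 CPM in endothelial cells, 50.7 and 52.1 in SMCs and 20310 and 23090 in resident macrophages, with none of the 6 at 0 in endothelial cells. *C1qa* in endothelial cells was at 0.378% and 0.305% of its level in resident macrophages, *Lyz2* at 0.346% and 0.354% and *Ctss* at 0.445% and 0.524%, whereas *H2-Aa* was at 7.84% and 16.8% and *H2-DMb1* at 29.3% and 69.5%. The 10 dendritic markers summed to 22.9 and 25.9 CPM in endothelial cells, with 3 of the 10 at 0, to 5.82 and 6.09 in SMCs and to 2161 and 1730 in dendritic cells, where *H2-Aa* was at 9654 and 9669 CPM against 139 and 208 in endothelial cells. The part of these dendritic transcripts was not tested. The 7 B cell markers summed to 0.352 and 0.907 CPM in endothelial cells, and *Cd79a* was at 0 and 0.454 CPM in endothelial cells and at 3000 and 2963 in B cells. Endothelial cells held 59.4 and 77.6 UMIs of *Cd74* per UMI of *Ctss*, against 4.52 and 3.36 in resident macrophages, 9.22 and 8.37 in other macrophages, 28.8 and 37.0 in dendritic cells and 31.8 and 29.0 in B cells. The ratio of *H2-DMb1* to *H2-Aa* was 0.396 and 0.451 in endothelial cells and between 0.104 and 0.115 in dendritic cells and both macrophage groups. A cluster of 14 and 30 endothelial cells led by *Car4*, *Rgcc* and *Thrsp* held *C1qa* at 1051 and 399 CPM, and all 8 members remained called without it.

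Levels differed among endothelial clusters, here described without a test. *Cd74* was highest in the cluster led by *Sfrp2*, *Emb* and *Ahsg* (599 and 838 CPM), apart from the *Car4* cluster in aorta 2 (1796 CPM), and 4 further clusters of at least 10 cells in each aorta lay between 255 and 679 CPM. It was low in the cluster led by *Eps8l2*, *Jag2* and *Sema3g* (58.4 and 55.45 CPM, 97 and 45 cells), where *Jag2* encodes a Notch ligand and *Sema3g* is known from arterial endothelium. That cluster had no UMI of *H2-DMb1* in either aorta. A cluster led by *Lrg1*, *Plekha7* and *Stc1* held 127 CPM in aorta 1 and 0 in aorta 2.

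Lymphatic endothelial cells (45 and 73) differed from the other endothelial cells in these genes. No UMI of *H2-Aa*, *H2-DMb1* or *Ciita* was found in them, and *Cd74* had 1 and 4 UMIs. With a floor of 3 UMIs over both aortas, *H2-Aa* was at least 22.0-fold and *H2-DMb1* at least 9.36-fold higher in endothelial cells. The ratio of endothelial to lymphatic cells was 35.7 for *Cd74* (counting interval 15.3 to 110), 33.8 for *H2-Ab1* (9.32 to 279), 47.5 for *H2-Eb1* (8.49 to 1878) and 15.1 for *H2-DMa* (2.68 to 599), and 0.657 for *Ctss* (0.234 to 2.55). In edgeR, 6 of 8 members were lower in lymphatic cells, where 9.04% of all genes were lower and 5.8% higher. *Ciita* (adjusted p = 0.104) and *Ctss* (adjusted p = 0.899) were not called; *Ciita* had 15 and 25 UMIs in endothelial cells. All 9 class I genes were lower as well, with a median log2 fold change of -1.93, such as *H2-K1* (440 and 645 against 2570 and 2873 CPM, -2.61, SE 0.19) and *B2m* (-2.06, SE 0.19). Of the other class II presentation genes, *Ctsd*, *Irf1* and *Ifngr1* were lower. With *H2-Aa*, 0 of 45 and 0 of 73 cells held a UMI, which at a limit of 3 counts allows a share of cells with a UMI of up to 6.67% and 4.11%; this limits detection and not expression. With only cells of 5000 to 25000 UMIs, clustered anew, the differences were much smaller, with log2 fold changes of -1.58 for *H2-Aa*, -2.29 for *H2-DMb1*, -1.68 for *H2-Eb1*, -2.02 for *H2-Ab1* and -2.85 for *Cd74*, and *H2-DMa* was not called (-1.05, adjusted p = 0.409). The bounds and ratios above therefore hold for the lymphatic cells as clustered here. RLE scaling raised the median gene by 0.21 and turned the share of higher genes among all called from 39.1% to 50.9%, with the same 6 members called.

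Mesothelial cells, which line serous surfaces, were compared with fibroblasts. *H2-Ab1* was at 26.5 and 25.4 CPM against 7.23 and 5.61 CPM (log2 fold change 1.81, SE 0.48, adjusted p = 0.0023), and *Cd74* at 77.9 and 34.6 against 19.6 and 14.5 CPM (1.58, SE 0.57, adjusted p = 0.0248). These 2 of 8 members were higher, where 10.2% of all genes were higher and 13.7% lower. The median was 1.27 over members and -0.07 over all genes. *H2-Aa* was at 12.1 and 15 against 5.6 and 5.0 CPM (1.13, SE 0.57, adjusted p = 0.124). The call for *Cd74* was lost in DESeq2 (adjusted p = 0.212) and with class II genes allowed in the clustering (1.27, adjusted p = 0.116), and the number called ran from 1 to 6 over the alternatives. The 6 macrophage markers summed to 89.2 and 79.7 CPM in mesothelial cells and 34.7 and 33.3 in fibroblasts, and their part in the difference was not tested. Most of the *Cd74* lay in the cluster led by *Cdkn1c*, *Igf1* and *Pappa* (197 and 77.5 CPM) and, in aorta 1, in that led by *Emb*, *Bex1* and *Wfdc2* (213 and 6.93 CPM), whose *C1qa* was at 67.1 and 6.93 CPM. Of the other lists, *H2-K1* (1.78, SE 0.16) and *Psmb9* (1.35, SE 0.18) were higher, and *Ifi30* (-1.31, SE 0.21) and *Cd80* lower.

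In SMCs and fibroblasts the chain genes were at 0.315% and 0.338% (SMCs) and 0.317% and 0.404% (fibroblasts) of the resident macrophage level for *H2-Aa*, and at 0.307% and 0.297% (SMCs) and 0.304% and 0.313% (fibroblasts) for *Cd74*. In SMCs the macrophage genes had lower shares of that level, at 0.0696% and 0.0698% for *C1qa*, 0.13% and 0.144% for *Lyz2* and 0.091% and 0.112% for *Ctss*. Other macrophages held more *H2-Aa* (5984 and 6474 against 1767 and 1239 CPM in resident macrophages) but less *C1qa* (4257 and 4699 against 7437 and 8470 CPM). The order of these shares therefore depends on the macrophages chosen as reference, and the part of free RNA was not tested. *H2-DMb1* stood apart, at 13.2 and 14.3 CPM in SMCs, 7.04% and 10.6% of the resident macrophage level. It rested on 204 and 157 UMIs. Among SMC clusters, described without a test, *H2-DMb1* was at 34.2 and 37.6 CPM in the cluster led by *Msx2*, *Dlx6os1* and *Dlx6* (383 cells in each aorta), where *H2-Aa* was at 6.08 and 7.18 CPM. It was at 4.63 and 4.90 CPM in the largest cluster, led by the stress genes *Atf3*, *Hspa1b* and *Hspa1a* (668 and 367 cells), and between 0 and 8.42 CPM in 3 other clusters. The cluster led by *Nrn1*, *Scin* and *Mab21l2* held 45.3 CPM in aorta 1 and 4.74 in aorta 2, with *Cd74* at 93.5 and 11.9 CPM. No UMI of *H2-DMb2* was found in SMCs.

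Cell number and level together set where the transcripts of the aorta lay. Other macrophages made up 3.07% and 2.75% of the analysed cells and held 47.8% and 49.4% of all *Cd74* UMIs. Resident macrophages (8.93% and 7.63% of cells) held 23.3% and 17.1%, dendritic cells (0.428% and 0.498%) held 11.2% and 11.5%, and B cells (1.90% and 2.06%) held 9.08% and 12.1%. Endothelial cells (10.8% and 13.8%) held 1.22% and 2.33% of *Cd74* UMIs but 5.58% and 11.4% of *H2-DMb1* UMIs, and SMCs 7.29% and 8.67% of *H2-DMb1*. These shares depend on how readily each cell type leaves the tissue on digestion.

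Outside the 8 members, the genes most like the mean of *H2-Aa*, *H2-Ab1*, *H2-Eb1* and *Cd74* over the 30 sums of 15 types were *Cd180* (Pearson r of log2(CPM + 1) 0.949), *Ly86* (0.934), *Pkib* (0.920), *Rnase6* (0.897) and *Cd83* (0.890), among 12097 genes with at least 200 UMIs. Outside the members the same 5 genes led for *Ciita*, headed by *Pkib* (0.941). *Cd180*, highest here in B cells, dendritic cells and other macrophages, encodes a surface receptor and *Ly86* its partner MD-1. Of the members, *Ciita* correlated with the mean at 0.946, *H2-DMb1* at 0.910, *H2-DMa* at 0.858 and *Ctss* at 0.765. Sums of 1 aorta share a library and those of rare types few molecules, so these values are descriptions and carry no p.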

How the data were processed

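Whole thoracic aortas were profiled with a 10x 3′ droplet method. The authors made the deposited raw UMI counts per gene and cell with Cell Ranger 4.0.0 from mm10 with eGFP and tdTomato added, and the labels also name Seurat 4.0. Cells with over 200 genes, 1000 to 25000 UMIs and under 10% mitochondrial UMIs were kept, and doublets called by Scrublet were removed (3.04% and 1.79%). Cells were clustered with scanpy 1.11.5 and leidenalg 0.10.2 (2000 variable genes, 30 components, 15 neighbors, resolution 1), then again within each lineage. Members, listed class II genes, reporters and mitochondrial genes were left out. A name needed 3 markers detected in 25% of cells. Clusters with markers of another lineage, of low depth without a leading marker, or with too few markers, stayed unnamed; these details were set after cluster tables had been seen.

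UMIs were summed per aorta and type and tested with edgeR 4.0.16 (R 4.3.3; quasi-likelihood, TMM, filterByExpr, 1 model of 15 types). Adjusted p is Benjamini-Hochberg over all 11318 genes, and a gene was called at adjusted p under 0.05 with a log2 fold change beyond 1. SE is the log2 fold change over the root of F. The script was tested on simulated data. Same-numbered sums come from the same animal; deviations of 2 types correlated across genes with a median r of 0.0149 (-0.0244 to 0.180). The members and lists were chosen with earlier results of these data known. Named genes are the members and, of 2 lists, up to 5 called genes with the largest fold; other named genes were chosen after their values were seen. *H2-Ea-ps*, in 1 list, is not analysed here. A further listed gene is counted but not reported by name here. Dendritic subsets did not form separate clusters, so their comparison was not run. Intervals are exact binomial at 95%.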

Additional observations from a re-analysis of the deposited data

How the results depend on the processing

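The replicate block, with the aorta as a term, called 7, 2, 8, 6, 8, 6 and 2 members in the 7 comparisons in the order of the report, the same members as without it. The count of members called moved by more than 1.5 times in 2 comparisons. For B cells against dendritic cells it fell from 6 to 2 in DESeq2. For mesothelial cells against fibroblasts it went from 2 to 1 in DESeq2 and with class II genes allowed in the clustering, to 4 without a gene filter and with only the compared types in the fit, and to 6 with doublets kept. The causes were not tested. Of 532 fold changes recomputed with a test, 504 kept their side of the thresholds, 15 lost it, 13 gained it and no called value changed sign. In 112 values from 1 aorta alone no called value changed sign. Leaving out 1 aorta left no residual degrees of freedom, so those are values with no test. Alternatives without the *Car4* endothelial cluster and without the *Grap* macrophage cluster were added after seeing the data. Of 28 shares of cells with a UMI of *H2-Aa* or *Cd74*, 20 moved beyond their interval with all UMIs counted and 17 with a minimum of 2 UMIs. With 28 and 23 dendritic cells and 45 and 73 lymphatic cells, low transcripts such as *Ciita* rest on few UMIs.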
